A study of Homo sapiens with 3 samples.

Results

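The human Y RNA genes RNY5, RNY4, RNY3 and RNY1 lie in 1 cluster on chromosome 7, and the double-stranded RNA (dsRNA) found over them in HEK 293 cells is described here. HEK 293 is a human embryonic kidney cell line. Of the 271645 regions in the deposited dsRNA lists, 13 overlapped the cluster window, chromosome 7 from 148638000 to 148685000 in hg19. The window was set by position and not by any measured value. Of the 13 regions, 4 lay at the Y RNA genes and 9 between them. The dsRNA was the RNA left after total RNA was digested with the nuclease T1, and sequencing was done on wild-type cells and on cells with a Dicer knockdown, 1 library each. Another library, DICER chromatin immunoprecipitation in wild-type cells, gave a list of peaks. How the knockdown was made, and whether each library came from 1 culture, is not stated in the sources used here. The knockdown could not be checked, as no DICER1 value was analysed.

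Y RNAs are short noncoding RNAs transcribed by RNA polymerase III. The start and the end of each molecule pair with each other to form a long stem that closes a large internal loop, and T1 cuts RNA at unpaired guanines, so a stem of this kind can outlast the digestion. The stem carries the binding site of the protein RO60, a ring-shaped protein that holds Y RNAs and misfolded RNAs, and the uridine tail at the end is bound by the La protein. Y RNAs are known for roles in RNA quality control and in the start of chromosomal DNA replication. DICER is an endonuclease specific for dsRNA that makes mature microRNAs and small interfering RNAs.

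Each region carries a summit, a whole number read here as the coverage at its highest point. It is a height at 1 position and not a sum over the length of the gene. The same workbook is attached to both dsRNA samples, and its sheet normal was taken as the wild-type library and its sheet induced as the knockdown library, on the names alone. If that reading is wrong, every direction given below reverses. With 1 library per group there is no replicate error, so no test was made between the conditions. The intervals printed are exact binomial 95% intervals that treat summits as read counts. They cover counting error only and say nothing of the spread between cultures. The summed summits were 80502410 in wild-type cells and 84057405 in knockdown, but the number of reads per library is unknown. Unless stated otherwise, knockdown summits were multiplied by 0.958 to equalise these sums.

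The gene names were checked by spacing, because no hg19 annotation was used. In the RefSeq table of GRCh38.p14 the centres of neighbouring Y RNA genes lie 21833, 20443 and 3386.5 bp apart, in the order RNY5, RNY4, RNY3, RNY1. The centres of the 4 wild-type dsRNA regions lie 21833, 20449.5 and 3370 bp apart. Over 24 chromosomes, this spacing pattern was met at 1 place among regions with a mean summit of at least 1000, within a tolerance of 50 bp. The same table puts 8 genes between EZH2, which encodes a histone methyltransferase, and PDIA4, which encodes a protein disulfide isomerase. Besides the 4 Y RNA genes these are the long noncoding RNA genes LOC124901767, LOC124901768 and GHET1, and the pseudogene RN7SL569P.

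All 4 Y RNA genes stood among the highest dsRNA regions of both libraries. RNY5, whose RNA has been found in a complex with ribosomal protein L5 and misfolded 5S ribosomal RNA, had the highest summit, 435887 in wild-type cells and 697178 in knockdown. Its region ran from 148638546 to 148638688 in wild-type cells, and it ranked 53 of 271645 in wild-type cells and 28 in knockdown. RNY1, whose RNA is known to bind nucleolin and is among the Y RNAs used in assays of DNA replication, came next. Its summit was 321797 in wild-type cells and 393752 in knockdown, at 148684173 to 148684366 in wild-type cells, with ranks of 60 and 53.

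RNY4, for which the RefSeq table names the most pseudogenes of the 4, had a summit of 88921 in wild-type cells and 109203 in knockdown. Its region ran from 148660374 to 148660526 in wild-type cells. It ranked 123 and 113. RNY3, whose RNA also binds nucleolin and has been linked to the processing of histone messenger RNA, was the lowest of the 4. Its summit was 31802 in wild-type cells and 40464 in knockdown, at 148680823 to 148680976 in wild-type cells, with ranks of 218 and 202. The order RNY5, RNY1, RNY4, RNY3 was the same in both libraries. From the highest to the lowest gene the summit differed 13.7-fold in wild-type cells and 17.2-fold in knockdown. RNY1 stood 10.1 times above RNY3 in wild-type cells and 9.73 times in knockdown, and RNY4 stood 2.80 and 2.70 times above it. Whether neighbours in this order would differ beyond the spread between cultures cannot be told from single libraries.

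The Y RNA genes made up a large part of the dsRNA height on their chromosome. Together they held 39.8% of the summed summits of chromosome 7 in wild-type cells and 46.2% in knockdown. Of the 14738 regions of chromosome 7, only 19 had a mean summit of at least 10000, the Y RNA genes among them. The share held by the highest regions of other chromosomes was not worked out, so whether this share is unusual was not tested. Of the summits of the whole library the Y RNA genes held 1.09% in wild-type cells and 1.48% in knockdown. In knockdown RNY5 was the highest region of chromosome 7, and in wild-type cells it ranked 2 there. RNY1, RNY4 and RNY3 ranked 3, 5 and 9 on the chromosome in both libraries.

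Between the genes the window was nearly empty. The 9 other regions had summits from 1 to 22 in wild-type cells and from 1 to 31 in knockdown, with a median of 4 in both, close to the median over all regions of 3 and 2. RNY3, the lowest gene, stood 1446 times above the highest of these 9 in wild-type cells and 1305 times in knockdown. The 4 genes held 99.992% of the summed summits of the window in wild-type cells (exact 95% interval 99.989% to 99.993%) and 99.995% in knockdown (99.993% to 99.996%). They did so on less covered length than the other regions, 640 bp against 851 bp in wild-type cells and 619 bp against 813 bp in knockdown. No second region lay within 250 bp of any Y RNA gene. The nearest lay 755 bp before the RNY1 region in the wild-type list, with a summit of 4 in both libraries. In the same list the gap was 1399 bp for RNY4 and 1766 bp for RNY3, to regions with summits of 1 to 4. The nearest region to RNY5 lay outside the window, at a gap of 2683 bp, with a summit of 5 in wild-type cells and 2 in knockdown. In the knockdown list the 4 gaps were 771, 1348, 1725 and 2676 bp.

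**Figure D1:**
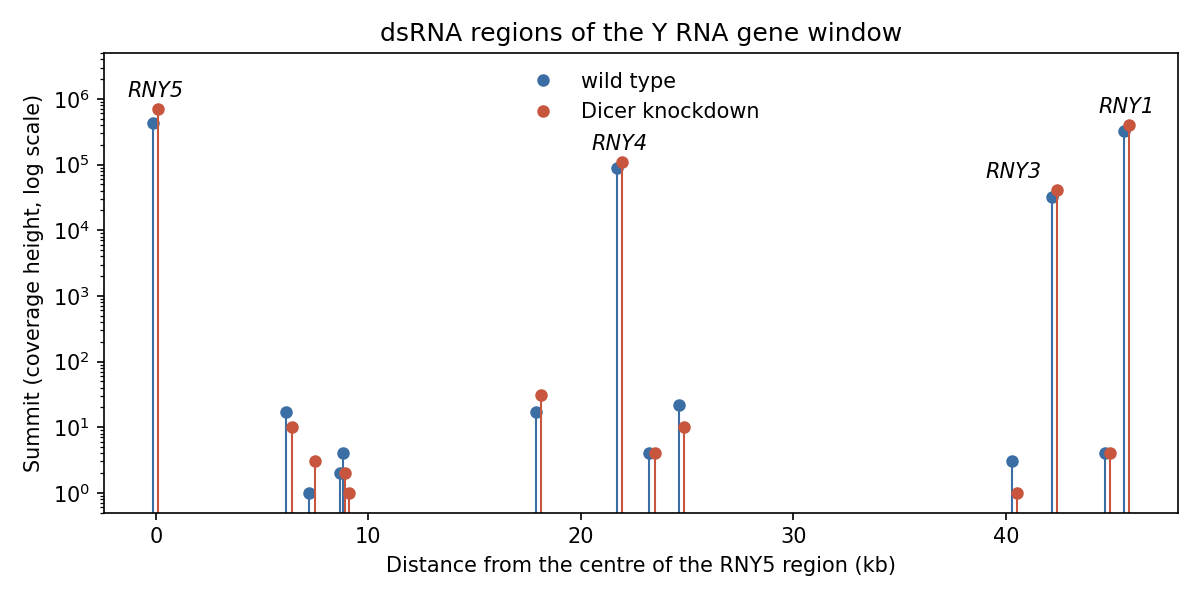
Summit of each dsRNA region in the Y RNA gene window on a log scale, against the distance in kb of the region's centre from that of the RNY5 region, with 1 stem for each of 13 regions in wild type (blue) and in Dicer knockdown (red), drawn slightly apart. The 4 Y RNA genes reach 31802 to 697178, while the 9 other regions reach at most 31.

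All 4 Y RNA genes had higher summits in knockdown than in wild-type cells, and none reached a 2-fold difference when scaled to the summed summits. RNY5 was 1.53-fold higher after scaling (interval 1.53 to 1.54 after rounding), a log2 ratio of 0.62. RNY3 was 1.22-fold higher (1.20 to 1.24), RNY4 1.18-fold (1.17 to 1.19) and RNY1 1.17-fold (1.17 to 1.18). The knockdown library was thus above wild type at each gene, with RNY5 apart from the other 3. Summed over the genes, the height was 878407 in wild-type cells and 1240597 in knockdown, 1.35-fold higher after scaling, at a mean of 219602 and 310149 per gene.

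The 4 genes lay above the middle of the library. Their median log2 ratio was 0.26, against -0.53 over the 35876 regions with a combined summit of at least 20. Among those regions 35.9% differed by 2-fold or more, 5.07% higher and 30.8% lower, whereas 0 of the 4 genes did. Ratios shift with level, so the closer setting is the 427 regions with a mean summit of at least 10000, where 8.67% differed by 2-fold or more, 4.92% higher and 3.75% lower. Their median log2 ratio was -0.02 (SD over regions 0.59), and 208 of the 427, or 48.7%, were higher in knockdown. Within them RNY5 stood at the 84.1st percentile, RNY3 at the 71.4th, RNY4 at the 69.6th and RNY1 at the 69.3rd. RNY3, RNY4 and RNY1 therefore lay inside the middle part of this range, whose quartiles were -0.30 and 0.34, and RNY5 lay above the upper quartile. Regions with a mean summit of at least 100000, a limit chosen after the values were seen, numbered 116 and had a median of -0.12 (SD 0.43). Of these, 32.8% were higher in knockdown, 6 had a higher ratio than RNY5 and 15 a higher ratio than RNY1. RNY5 and RNY1 thus both stood higher in this set than among the 427. These percentiles describe the 2 libraries and are not a test.

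**Figure D2:**
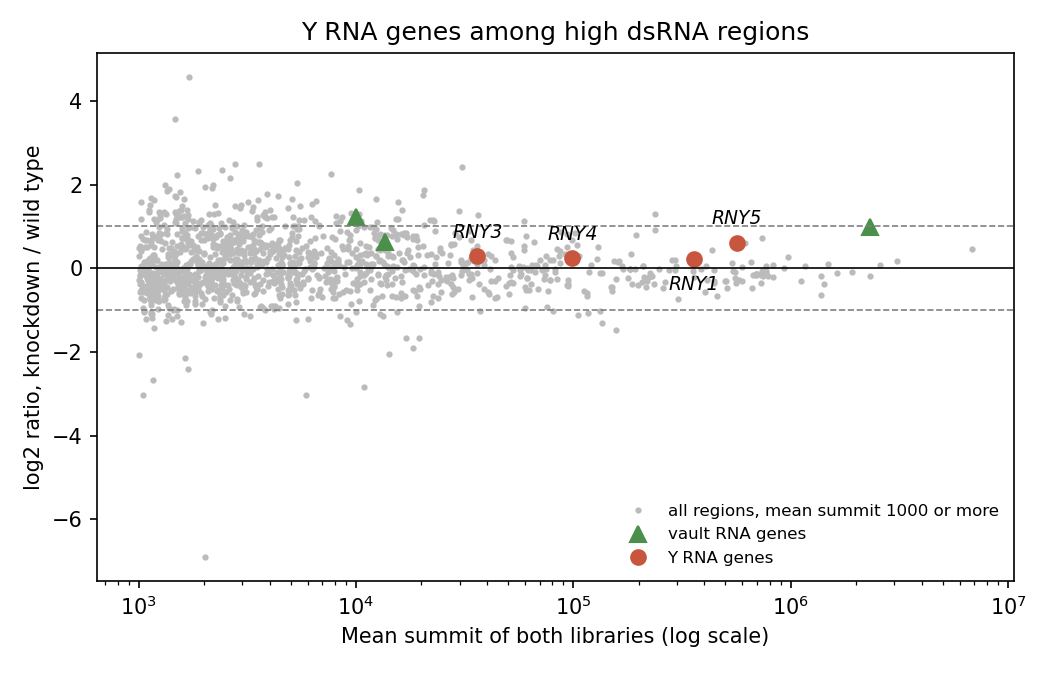
The log2 ratio of knockdown to wild type, scaled to the summed summits, against the mean summit of both libraries on a log scale, with 1 grey point for each region with a mean summit of at least 1000, red circles for the Y RNA genes and green triangles for the vault RNA genes; dashed lines mark a 2-fold difference. The Y RNA genes lie at 0.23 to 0.62, above 0 and inside the dashed lines.

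The scaling sets how large these ratios are, because the summed summits rest largely on a small set of regions and read depth is unknown. Unscaled, RNY5 was 1.60-fold higher in knockdown. It was 2.15-fold higher with the top 1% of regions dropped before summing, and 2.24-fold higher when the median ratio was set to 1, and so passed the 2-fold line under these 2 scalings. The same 2 scalings raised the share of regions with a mean summit of at least 10000 that were higher by 2-fold to 18.5% and 20.1%, and the share of those with a combined summit of at least 20 to 11.5% and 12.8%. They lowered the share of the latter that were lower by 2-fold to 18.4% and 17.7%, and moved their median log2 ratio to -0.05 and 0. The other 3 genes stayed below 2-fold under each of the 4 scalings and reached at most 1.78-fold, at RNY3. All 4 genes were above 1 under all 4 scalings, of which the scaling to the summed summits gives the lowest ratios.

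**Figure D3:**
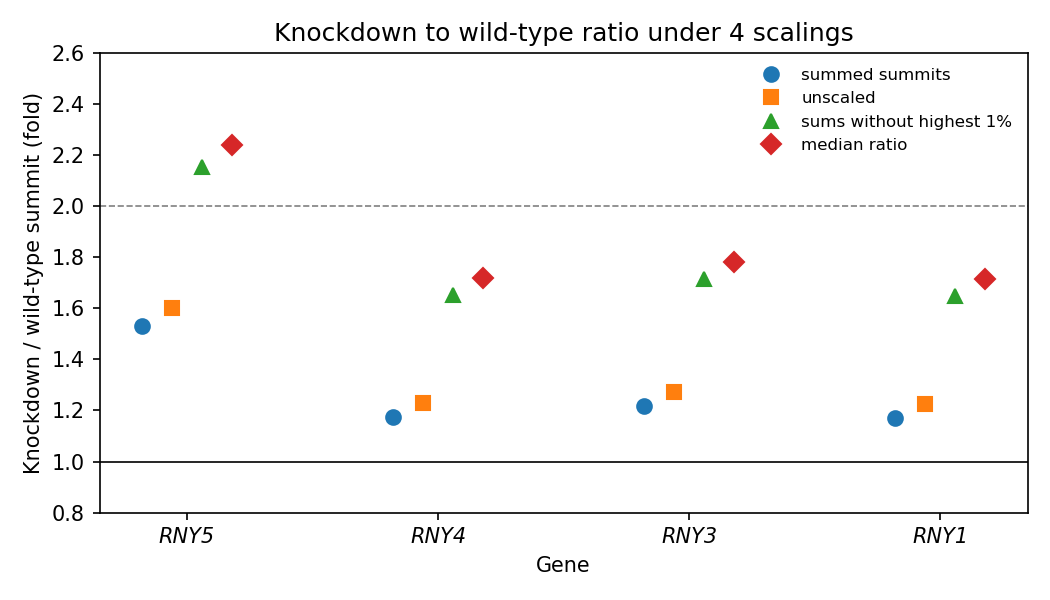
Fold of knockdown over wild-type summit at each Y RNA gene under 4 scalings of the libraries, 1 marker each, with a solid line at no difference and a dashed line at 2-fold. RNY5 is the highest gene under each scaling and passes the dashed line under 2 of them, at 2.15 and 2.24.

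The difference between RNY5 and the other Y RNA genes does not depend on the scaling, since any factor cancels when genes are compared within a library. The RNY5 summit was 1.35 times that of RNY1 in wild-type cells and 1.77 times in knockdown. Its ratio of knockdown to wild type was 1.31 times that of RNY1 (Wald 95% interval 1.30 to 1.32), 1.30 times that of RNY4 (1.29 to 1.31) and 1.26 times that of RNY3 (1.24 to 1.28). The remaining 3 of the 6 pairs of genes were closer. RNY4 against RNY1 was 1.00 (0.994 to 1.01), RNY3 against RNY1 was 1.04 (1.02 to 1.06) and RNY4 against RNY3 was 0.965 (0.949 to 0.982). The largest of these differences was 0.39 on the log2 scale. Single log2 ratios among the 427 highly covered regions had an SD of 0.59. That SD is neither the spread of a difference between 2 regions nor the spread between cultures. The intervals cover counting error only.

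The make-up of the Y RNA height shifted accordingly. RNY5 held 49.6% of the summed summits of the 4 genes in wild-type cells and 56.2% in knockdown, a gain of 6.57 percentage points. RNY1 went from 36.6% to 31.7%, RNY4 from 10.1% to 8.80% and RNY3 from 3.62% to 3.26%. RNY5 alone of the 4 gained share. RNY1 lost the most percentage points, 4.90, but it began with the largest share of those that lost. The ratio of knockdown to wild type at RNY4 was 1.00 times that at RNY1, so RNY1 did not stand out in relative terms.

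The dsRNA regions were wider than the genes they covered and were slightly narrower in knockdown. The genes are 84 bp (RNY5), 96 bp (RNY4), 102 bp (RNY3) and 113 bp (RNY1) long in RefSeq. The wild-type regions at RNY5, RNY4 and RNY3 were 142, 152 and 153 bp wide, which is 58, 56 and 51 bp more than the gene. The RNY1 region was 193 bp wide, 80 bp more than its gene, and so stood out among the 4. In knockdown the widths were 140, 148, 150 and 181 bp, with a surplus of 56, 52, 48 and 68 bp. All 4 were narrower in knockdown, by 2 bp at RNY5, 4 bp at RNY4, 3 bp at RNY3 and 12 bp at RNY1. Among the 427 regions with a mean summit of at least 10000, 213 were narrower in knockdown, 187 wider and 27 equal, with a median change of 0. Reads were 50 bp long.

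**Figure D4:**
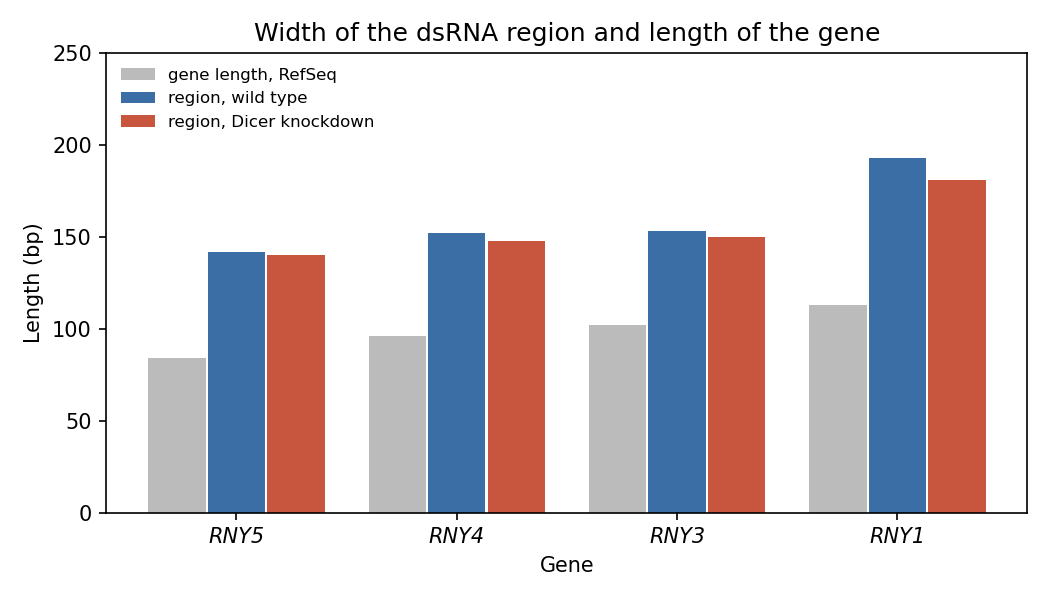
Length in bp of each Y RNA gene in RefSeq (grey) and width of its dsRNA region in wild type (blue) and in Dicer knockdown (red). Each region is wider than its gene, by 51 to 80 bp in wild-type cells, and RNY1 has the widest surplus and the largest narrowing, from 193 to 181 bp.

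The extra width at RNY1 lay at the end with the lower coordinate. The stops of the wild-type regions were spaced as the gene ends are, to within 1 bp from RNY5 to RNY4, 4 bp from RNY4 to RNY3 and 2 bp from RNY3 to RNY1. The starts followed the gene starts to within 1 bp and 9 bp for the first 2 of these steps, but the RNY1 region began 31 bp earlier than the spacing from RNY3 gives. In knockdown it began 21 bp earlier. The narrowing at RNY1 in knockdown lay wholly at this end, where the start moved inward by 12 bp from 148684173 to 148684185 while the stop stayed at 148684366. RNY5 kept its stop as well, at 148638688, and its start moved inward by 2 bp. Of the 427 highly covered regions, 15.0% had the same stop in both libraries and 18.3% the same start. At RNY4 both ends moved toward higher coordinates, the start by 8 bp and the stop by 4 bp, and at RNY3 the region ended 1 bp earlier and began 2 bp later.

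The 9 regions between the genes showed no common direction. Of these, 2 had a higher summit in knockdown, 4 a lower and 3 the same, before scaling. Their summits summed to 74 in wild-type and to 66 in knockdown cells, over 851 bp and 813 bp, at a mean of 8.22 and 7.33 per region. The ratio of these sums was 0.854 after scaling, and its interval of 0.604 to 1.21 includes 1.

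Only 3 of the 9 reached a combined summit of 20. Their median log2 ratio was -0.77, against -0.53 over all regions at this minimum. With the median ratio set to 1 these values were -0.26 and 0. Without a minimum, the median log2 ratio of the 9 was -0.05 under the summed summits. The region from 148656499 to 148656713, 3844 bp before the centre of the RNY4 region, was the highest, with 17 in wild-type cells and 31 in knockdown. Its fold of 1.70 had an interval of 0.937 to 3.36. The region from 148663293 to 148663435, 2914 bp after the centre of the RNY4 region, had 22 in wild-type cells and 10 in knockdown, a fold of 0.460 with an interval of 0.184 to 0.958. It was the 1 of these 3 past 2-fold, against the 30.8% lower by 2-fold among all regions at this minimum. This call rests on the scaling. With the top 1% of regions dropped before summing and with the median ratio set to 1, its fold was 0.629 and 0.652, and the region with 17 and 31 passed 2-fold instead, at 2.38 and 2.47. The region from 148644855 to 148644912, 6267 bp after the centre of the RNY5 region, had 17 and 10, with an interval of 0.231 to 1.30 around 0.588. Among the other 6, the highest combined summit was 8, at 148661925 to 148661994 and at 148683363 to 148683418, each with 4 in both libraries.

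The Y RNA regions were listed in the authors' final set, and no DICER peak lay near them. All 4 gene regions were among the 1003 regions of that set, and 0 of the 9 other regions were. So were all 427 regions with a mean summit of at least 10000, so the listing is shared by every region of this level. Of the 119 DICER peaks, 7 lay on chromosome 7 and 0 in the Y RNA window. The nearest, at 142375332 to 142375541 with the authors' score of 213.7, was 6.26 Mb away. Among the 427 regions with a mean summit of at least 10000, 37 overlapped a peak, or 8.67%. No control library for the immunoprecipitation was analysed here.

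The vault RNA genes on chromosome 5, which encode other short RNA polymerase III transcripts that are partners of the large vault particle, were placed by spacing for comparison and were the single other cluster tried. VTRNA1-1, VTRNA1-2 and VTRNA1-3 were found at 1 place with the same tolerance. VTRNA1-1 had a summit of 5789 in wild-type cells and 14132 in knockdown, 2.34-fold higher. VTRNA1-2, by far the highest of the 3, had 1511983 and 3138693 and was 1.99-fold higher. VTRNA1-3, with 10463 and 16840, was 1.54-fold higher. The vault regions thus lay at unlike levels. The ratio at RNY5 thus lay next to the lowest of the vault RNA genes, and those at RNY3, RNY4 and RNY1 lay below all 3. The vault regions were also wider beyond their genes, by 84 to 217 bp in wild-type cells. With 1 library per group this difference between the clusters was not tested.

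Reads of Y RNAs can match more than 1 place in the genome. The RefSeq table lists 75 Y RNA pseudogenes, of which 33 are named for RNY4, 16 each for RNY3 and RNY1, and 10 for RNY5. Only entries named in this way were counted, so any copies that the table does not name are left out. The sources used here do not say how reads with several matches were placed, so the levels of the 4 genes may include reads of pseudogenes or lack reads given to them. Their part in the differences between genes was not tested.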

How the data were processed

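Per the submitters' processing notes, tools named are bcl2fastq 1.8.4 and BWA 0.7 for dsRNA and Bowtie 0.12.7 and MACS 1.4 for ChIP, all with hg19. The caller of the dsRNA regions was not given in the sources used here. Positions and a summit per region were deposited for dsRNA, the summit being a whole-number coverage signal with no library-size normalisation. The deposited peak list gives a score per peak, and the deposited final set gives positions alone. Identical copies of the sheets were read once, and the normal and induced sheets were paired by row number.

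A gene was given the highest region within 250 bp of its stated hg19 position. The log2 ratio used a pseudocount of 1. Counts of 2-fold differences required a combined summit of at least 20. Width is stop minus start as deposited, and dsRNA coordinates were left as deposited, as the sources used here do not say where their counting begins. Peak positions count from 1, and overlap means 1 bp or more. Distances between genes come from RefSeq, GRCh38.p14, and no coordinate was converted. The tolerance for spacing was set after seeing the vault RNA regions. The genes, lists and settings were chosen with earlier results of these data known. The rule for named items took the 4 genes, the 5 highest other regions of the window and the 3 highest and 3 lowest ratios with a combined summit of 20 or more, which are 3 regions in all. The script was run on simulated data unscaled, with the median ratio set to 1 and with the top 1% of regions dropped before summing. The scaling to summed summits was not tested in this way. The intervals were checked only on simulated counts with no spread beyond counting error. Python 3.11.15, numpy 2.4.6, pandas 2.3.3 and scipy 1.17.1 were used.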

Additional observations from a re-analysis of the deposited data

How the results depend on the processing

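Relative to the scaling to summed summits, leaving the data unscaled raised all log2 ratios of high regions by 0.06, dropping the top 1% of regions before summing raised them by 0.49, and setting the median ratio to 1 raised them by 0.55. In that order, RNY5 was 1.60, 2.15 and 2.24-fold higher in knockdown, RNY4 1.23, 1.65 and 1.72-fold, RNY3 1.27, 1.71 and 1.78-fold, and RNY1 1.22, 1.65 and 1.71-fold. Knockdown was higher in all 28 alternatives for the gene ratios, but this count adds nothing on the direction. The alternative scalings all had factors above 0.958 and so could only raise ratios that were already above 1. Pseudocounts of 0.5 and 5 or other distances to the gene left the ratios within their intervals, and at summits this high they could hardly do otherwise. Of the other regions of the window, 1 was higher and 0 lower by 2-fold with the reduced sums and with the median ratio, and 3 were lower with no minimum summit. Over all regions, 4134 were higher and 6609 lower by 2-fold with the reduced sums, and 4601 and 6340 with the median ratio, against 1819 and 11049 with the summed summits. At a minimum combined summit of 10 the counts were 4960 and 30454, since more regions entered. No paired analysis was possible because there was a single library in each group. The unknown depth, the placing of reads with several matches and the lack of replicates limit all of these values.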
